A study of Mus musculus with 15 samples.

Results

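The comparison was between 3 arrays of mouse ventral prostate epithelial lines transformed by the v-src oncogene, called Src here, and 3 arrays of untransduced prostate epithelial cells in primary culture, called control. Members were taken by their sample labels alone, 6 of the 15 arrays in the series, and every gene with a probe set of its own was analysed: 19938 genes, from 21789 of the 35556 probe sets on the array. All cells came from the FVB strain. The design text counts 3 lines for each oncogene, while the labels number the arrays as replicates. Whether each array is a separate line or culture was not settled, so the spread between arrays of a group may be in part technical. The remaining 9 arrays, lines transformed by c-myc (Myc), neuT (NeuT) or ha-ras (Ras), 3 of each, entered the fit, where they share in the estimate of the spread, and were compared with the Src lines.

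Src is a non-receptor tyrosine kinase that sits at the inner face of the cell membrane, and v-src is its viral form, which lacks the tail that normally holds the kinase inactive. It phosphorylates proteins of focal adhesions, cell junctions and the actin cytoskeleton, and passes signals to the ERK, STAT3 and PI3 kinase pathways. The prostate epithelium is built of basal cells, marked by p63 and the keratins Krt5 and Krt14, and luminal cells, marked by Krt8 and Krt18. Primary cultures of this tissue commonly hold cells with features of both.

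Control and Src cells differed in more than the oncogene. The lines were kept in DMEM with 10% serum. Control cultures were grown in a medium for primary prostate epithelium and were moved to DMEM with 10% serum only the night before harvest. Cells of both kinds were collected at 85 to 90% confluence. Oncogene, time in culture, selection of a line and medium therefore cannot be told apart in this comparison. The mouse Src probe set read 7.08, 7.07 and 7.10 log2 units in the Src arrays and 7.14, 7.15 and 6.82 in the control arrays (log2 difference 0.05 ± 0.09, SE, adjusted p = 0.743). The groups overlapped, and whether these probes read the v-src transcript is not given in the sources used here; this gene therefore checks nothing about the label.

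Values were log2 expression per gene, and the precision is limited by the number of arrays. Any 2 Src arrays correlated at 0.994 to 0.996 over genes and differed 2-fold or more in 3 to 10 of them. For control arrays 1 and 2 the correlation was 0.997, with 3 such genes, but control array 3 correlated with them at only 0.956 and 0.955, and 682 and 709 genes differed 2-fold or more. Markers of kidney tubules, a tissue not named in the labels, stood in that array alone: 15 of 16 listed markers were at least 2-fold higher in control 3 than in the mean of controls 1 and 2, and their mean level was 9.70 there against 5.56 and 5.60. The proximal tubule gene Kap read 4.78, 4.83 and 12.10 in control arrays 1, 2 and 3, and 4.71, 4.68 and 4.55 in the Src arrays. The same 2-fold mark was passed upwards in control 3 by 685 genes and downwards by 2. Each result below was therefore also computed without control 3, and a gene counted as high in control 3 where it passed that 2-fold mark.

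**Figure D1:**
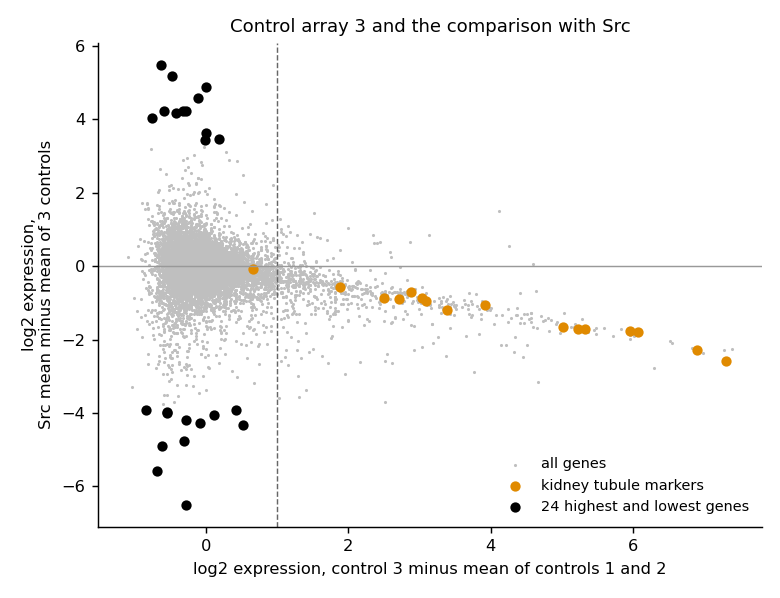
Each grey point is 1 of 19938 genes, with the log2 difference between control array 3 and the mean of control arrays 1 and 2 on the x axis and the log2 difference between the Src mean and the mean of the 3 control arrays on the y axis. The dashed line marks the 2-fold difference that defines the 685 genes high in control 3; 15 of the 16 kidney tubule markers (orange) lie beyond it, and all 24 genes with the highest or lowest differences described in the text (black) lie to its left.

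Between Src and control, 302 genes were called higher in Src (1.51% of genes tested) and 584 lower (2.93%), where called means an adjusted p under 0.05 in limma's moderated test and a difference of at least 2-fold. Counted by adjusted p alone, 2823 genes were higher (14.2%) and 2440 lower (12.2%). The median difference over all genes was 0.06. Of the called genes, 49 were at least 4-fold higher and 140 at least 4-fold lower, and at 16-fold the counts were 9 and 9. Without control 3, 276 genes were called higher (1.38%) and 594 lower (2.98%), and with the 685 genes high in control 3 also left out, 248 (1.29%) and 555 (2.88%) of 19253. Of the 584 genes lower in Src, 88 were high in control 3, as were 5 of the 302 higher genes. Calls made with and without control 3, in genes not high in it, numbered 235 higher and 467 lower. In all of these the Src and control arrays did not overlap, which was so for 43.9% of all genes. Calls on the same arrays make this likely, so it adds no support. The control mean of 100 higher genes and the Src mean of 278 lower genes lay below 6.47, the median of all values. Arrays compress differences there, so the size of those changes is less certain than their direction. In 16 of the higher and 46 of the lower genes both means lay below 6.47, and for these the change itself is less certain.

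The 12 highest and 12 lowest genes were taken from the calls that held both ways. Their Src and control arrays are apart by that choice, and the values are given as a description. Il1a had the largest difference among the genes higher in Src, and another interleukin 1 family gene, Il1f9, was the third. Il1a, which encodes the alarm cytokine interleukin 1 alpha, read 11.43, 11.31 and 11.37 in Src arrays 1, 2 and 3 and 6.37, 5.82 and 5.46 in control arrays 1, 2 and 3. The 3 Src arrays lay within a narrow band and the controls were all lower, a log2 difference of 5.49 ± 0.20 (SE), or 44.8-fold (adjusted p = 3.62e-10). Il1f9, the gene of interleukin 36 gamma, an epithelial cytokine of barrier tissues, read 10.44, 10.74 and 10.34 in Src and 5.46, 5.76 and 5.62 in control (log2 difference 4.89 ± 0.40, adjusted p = 8.78e-07), again with every Src array above every control.

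Other genes of secreted and surface proteins were among the 12. The proliferin gene Prl2c5, a member of the prolactin family whose difference was next to that of Il1a, read 11.08, 11.03 and 10.64 in Src against 6.47, 5.30 and 5.42 in control (log2 difference 5.19 ± 0.31), and its probes may also read its near-identical relatives, so the reading may stand for the family. Mmp13, collagenase 3, which cleaves fibrillar collagen, read 10.31, 10.43 and 10.23 in Src and 5.95, 6.65 and 5.71 in control (log2 difference 4.22 ± 0.25); control 2 was the highest of the controls and still far below every Src array. Ptprz1, a receptor-type tyrosine phosphatase, read 9.21, 9.22 and 9.25 in Src and 4.84, 4.51 and 4.57 in control (log2 difference 4.59 ± 0.23). The Src arrays differed by less than 0.1 for this gene. Tnfrsf26, of the tumour necrosis factor receptor superfamily, stood at 10.53 ± 0.03 in Src and 6.37 ± 0.30 in control (mean ± SD, n = 3 arrays each). Adgrl3, an adhesion receptor of the latrophilin family, stood at 8.62 ± 0.26 and 5.15 ± 0.14.

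Among intracellular proteins, Prkg2, a cGMP-dependent protein kinase, read 10.49, 10.37 and 10.46 in Src and 6.14, 6.51 and 6.0 in control (log2 difference 4.22 ± 0.15). Tmem45a, a transmembrane protein gene, read 10.27, 10.02 and 10.25 in Src and 6.08, 6.0 and 5.77 in control (log2 difference 4.23 ± 0.35). The serpin gene Serpinb10, a protease inhibitor of the clade that stays inside cells, read 8.59, 8.84 and 8.50 in Src and 4.96, 4.75 and 4.10 in control (log2 difference 4.04 ± 0.19), and control 3 was the lowest array. Sprr2d, a small proline-rich protein of the cornified envelope, read 9.48, 9.99 and 9.40 in Src and 6.0, 5.99 and 5.99 in control (log2 difference 3.63 ± 0.27). S100a9, a calcium-binding subunit of calprotectin, read 10.22, 9.68 and 10.28 in Src and 6.64, 6.6 and 6.61 in control (log2 difference 3.45 ± 0.28). For both of these the controls were nearly equal, and Src array 2 stood apart from Src arrays 1 and 3, above them for Sprr2d and below them for S100a9.

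AP-1, a dimer of Fos and Jun proteins, acts downstream of ERK and binds the sequence TGANTCA, which reads the same on both strands. RefSeq promoters, the 250 bases before each gene's start in build GRCm38.p6, held this sequence in 6.75% of 32851 entries (7.82% of 27025 genes). Of the 12 highest genes 10 had an entry, and 4 of these held it (40%); of the 12 lowest 9 had an entry, and 1 held it (11.1%). The 200 bases before the start of these 5 genes, and of Sprr1a, a cornified envelope gene that was lower in Src, are shown 5′ to 3′ on the gene's strand, with the match in capitals. The 5 are all the members at either end of the comparison with a match, and Sprr1a is added as a squamous gene that moved against Sprr2d.

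Il1a, chr2:129309973-129310172, - strand: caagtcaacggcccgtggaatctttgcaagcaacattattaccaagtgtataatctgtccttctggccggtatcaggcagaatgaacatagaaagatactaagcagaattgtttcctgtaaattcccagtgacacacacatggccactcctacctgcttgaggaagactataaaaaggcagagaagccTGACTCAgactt
Mmp13, chr9:7272314-7272513, + strand: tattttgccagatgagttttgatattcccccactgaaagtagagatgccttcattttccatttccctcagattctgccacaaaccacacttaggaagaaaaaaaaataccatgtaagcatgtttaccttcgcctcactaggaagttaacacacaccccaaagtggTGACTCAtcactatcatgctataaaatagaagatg
Serpinb10, chr1:107528803-107529002, + strand: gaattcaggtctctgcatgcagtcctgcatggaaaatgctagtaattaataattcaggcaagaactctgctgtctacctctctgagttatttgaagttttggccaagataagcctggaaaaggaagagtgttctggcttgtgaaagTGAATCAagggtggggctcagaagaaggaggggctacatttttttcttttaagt
Sprr2d, chr3:92338940-92339139, + strand: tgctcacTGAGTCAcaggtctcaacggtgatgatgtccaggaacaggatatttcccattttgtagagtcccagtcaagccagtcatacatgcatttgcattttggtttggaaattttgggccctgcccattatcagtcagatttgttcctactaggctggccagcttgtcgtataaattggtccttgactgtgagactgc
Efemp1, chr11:28853005-28853204, + strand: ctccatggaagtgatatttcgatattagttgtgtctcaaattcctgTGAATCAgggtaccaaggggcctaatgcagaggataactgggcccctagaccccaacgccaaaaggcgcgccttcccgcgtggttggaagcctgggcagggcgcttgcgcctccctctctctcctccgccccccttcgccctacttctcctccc
Sprr1a, chr3:92485882-92486081, - strand: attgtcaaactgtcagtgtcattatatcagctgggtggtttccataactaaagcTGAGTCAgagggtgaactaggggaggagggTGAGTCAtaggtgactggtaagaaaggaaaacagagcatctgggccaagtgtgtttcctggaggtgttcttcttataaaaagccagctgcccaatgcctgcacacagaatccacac

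A match is a description of the letters and not a binding site, and the gene with 2 matches among those shown, Sprr1a, was lower in Src.

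The lowest genes encode matrix and adhesion proteins, transporters and enzymes, and products of several X-linked and Y-linked genes. Efemp1, the matrix glycoprotein fibulin 3, read 5.10, 5.15 and 5.15 in Src arrays and 11.03, 10.84 and 10.25 in control arrays (log2 difference -5.57 ± 0.28, adjusted p = 7.79e-09), a level 47.5-fold lower. Timp3, an inhibitor of metalloproteinases that stays bound to matrix, read 6.13, 6.11 and 6.23 in Src and 10.26, 10.32 and 10.83 in control (log2 difference -4.32 ± 0.31). The groups were far apart for both genes, and control 3 was the lowest control for Efemp1 and the highest for Timp3. Ceacam1, an adhesion molecule of epithelial cell membranes, read 5.53, 5.88 and 5.69 in Src and 10.06, 9.93 and 9.92 in control (log2 difference -4.27 ± 0.15). Edn1, the gene of the peptide endothelin 1, read 6.74, 6.66 and 6.43 in Src and 10.75, 10.77 and 10.22 in control (log2 difference -3.97 ± 0.14).

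Slc38a1, a glutamine transporter, read 5.44, 5.23 and 5.2 in Src and 9.51, 9.46 and 8.94 in control (log2 difference -4.01 ± 0.17). Ddah1, the enzyme that degrades asymmetric dimethylarginine, read 7.77, 7.45 and 6.96 in Src and 11.23, 11.12 and 11.59 in control (log2 difference -3.92 ± 0.18). Src array 3 was the lowest array for both, and no Src array came near the controls. The zinc finger gene Zbtb10 read 4.92, 4.46 and 4.17 in Src and 9.31, 9.45 and 9.08 in control (log2 difference -4.76 ± 0.18). Gca, the calcium-binding protein grancalcin, stood at 3.89 ± 0.19 in Src and 7.95 ± 0.07 in control. Bex1, a small X-linked gene, had the largest difference of all 24, at 5.01, 4.32 and 3.96 in Src and 10.91, 11.13 and 10.75 in control (log2 difference -6.50 ± 0.22, 90.7-fold). Its Src arrays spread more widely than those of most genes named here, by over 1 log2 unit, and all were below the median of all values. Armcx3 and Wnk3, also on the X chromosome, differed by -4.18 ± 0.62 and -3.92 ± 0.18 (SE). Eif2s3y, on the Y chromosome, differed by -4.91 ± 0.23, and the other Y-linked genes measured, Uty and Kdm5d, by -3.52 ± 0.14 and -2.77 ± 0.23; all 3 stood between 3.56 and 4.59 in every Src array and between 6.85 and 8.77 in the controls.

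**Figure D2:**
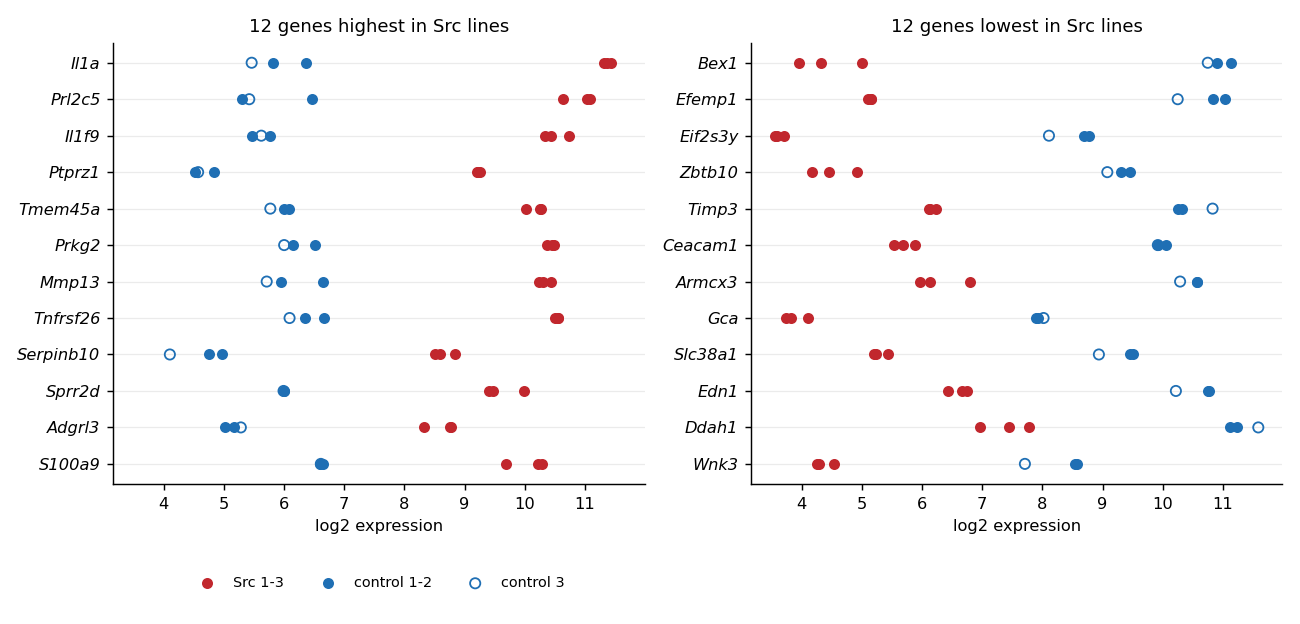
Log2 expression (x axis) of the 12 genes highest (left) and 12 genes lowest (right) in Src against control, 1 row per gene and 1 point per array: red for Src arrays 1 to 3, filled blue for control arrays 1 and 2, open blue for control array 3. In every row the red points stand apart from the blue, from Il1a (Src 11.31 to 11.43, control 5.46 to 6.37) to Wnk3 (Src 4.25 to 4.54, control 7.71 to 8.57), and the open point lies with the filled blue ones or closer to them than to the red.

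Gene lists were then read by their counts, and here rose and fell mean an adjusted p under 0.05 at any size of difference, which 14.2% and 12.2% of all genes met (11.6% and 13.1% without control 3). Basal epithelial markers rose more often than they fell. Of 17 measured, 9 rose and 3 fell, with a median difference of 0.42 (8, 3 and 0.27 without control 3). Trp63, the p63 transcription factor of basal cells, read 9.58, 9.51 and 9.66 in Src and 7.95, 8.05 and 7.55 in control (log2 difference 1.73 ± 0.12), and Krt5 read 12.19, 12.13 and 12.25 and 11.09, 11.21 and 10.58 (log2 difference 1.23 ± 0.14). Every Src array was above every control for both. The transcription factor Snai2 (1.52 ± 0.13) and the surface glycoprotein Pdpn (1.37 ± 0.16) rose as well. Krt15, by contrast, fell by 2.42 on the log2 scale, with 8.18, 7.08 and 8.09 in Src and 10.37, 10.37 and 9.87 in control, and the hemidesmosome plakin Dst fell by 1.06. Krt14 stood at 12.06 ± 0.05 in Src and 11.73 ± 0.20 in control (log2 difference 0.32 ± 0.15, adjusted p = 0.134), and Krt17 fell (-0.72 ± 0.17).

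Of 18 luminal and secretory markers, 2 rose and 5 fell (median -0.02); the count that rose was 0 without control 2, 1 without control 1 and 3 without control 3. Krt8, a keratin of simple epithelium, read 11.42, 11.41 and 11.44 in Src and 12.92, 12.95 and 12.78 in control, a log2 difference of -1.46 ± 0.10 that was far larger than the spread in either group. Krt19 fell by 1.23, and Krt18 stood at 10.51 ± 0.08 against 12.25 ± 0.31 without passing the test, whose spread is pooled over all 5 groups (adjusted p = 0.0734). The secretory protease gene Tmprss2 read 5.75, 5.88 and 5.67 in Src, below the median of all values, and 8.51, 8.47 and 8.86 in control (log2 difference -2.85 ± 0.12), and the apical membrane protein Prom1 fell by 2.16. Psca, prostate stem cell antigen, rose by 0.62 on the log2 scale (adjusted p = 0.0128), a call lost without control 2 and without Src 3, where the difference was 0.50 in each. As to the labelled epithelial origin, Cdh1, Krt5 and Krt8 were all above the median of all values in every Src and control array.

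Genes of the squamous programme, which builds the cornified layer of stratified epithelium, moved in both directions. Of 30, 12 rose and 4 fell (median 0.20; 11, 4 and 0.19 without control 3). Beside Sprr2d and S100a9, Sprr2f rose from 4.79, 4.59 and 4.63 in control to 7.80, 6.99 and 7.74 in Src (log2 difference 2.84 ± 0.17), Dmkn, the secreted protein dermokine, from 8.68, 8.37 and 8.06 to 10.52, 10.44 and 10.52 (2.12 ± 0.17), and S100a8, the calprotectin partner of S100a9, rose too (3.04 ± 0.39). Sprr2 genes are near-identical copies, and their probes may share signal. Those that fell included Krt4 (5.28, 5.64 and 5.47 in Src, 8.27, 7.99 and 7.65 in control, log2 difference -2.50 ± 0.13), the cross-linking enzyme Tgm1 (6.86, 6.72 and 6.80 and 8.88, 8.33 and 8.28, -1.70 ± 0.18), Sprr1a (log2 difference -2.11 ± 0.32) and the envelope protein Ivl (-1.57 ± 0.28). The cross-linker and its substrate involucrin thus fell while Sprr2 and S100 genes rose. TGANTCA was in the promoters of 12 of the 24 list genes with an entry (50%), some of them Sprr copies that share sequence.

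Cell junction genes were lower in the Src lines than in control. Of 37 junction and epithelial identity genes, 2 rose and 21 fell (median -0.40), and without control 3 the counts were 1 and 25 (median -0.54). The tight junction genes Cldn7 (7.78, 7.29 and 7.93 in Src, 10.60, 10.62 and 10.26 in control, log2 difference -2.82 ± 0.20) and Cldn1 (8.38, 8.37 and 8.24 and 10.60, 10.58 and 10.18, -2.12 ± 0.21) fell, as did Ocln, occludin (-1.54 ± 0.13), and Marveld2, tricellulin (-1.64 ± 0.15). Pkp2, a desmosome plaque protein, read 6.92, 7.0 and 7.04 in Src and 9.16, 9.23 and 8.96 in control (log2 difference -2.13 ± 0.11). Cdh1, E-cadherin, read 9.99, 9.83 and 9.99 in Src and 11.30, 11.33 and 10.86 in control (log2 difference -1.22 ± 0.13), so it was lower yet still well above the median of all values. Epcam fell (-0.56 ± 0.08) and Grhl2, a transcription factor of epithelial identity, rose (0.54 ± 0.14). The count of genes that rose was 4 without control 1 and 1 without Src 1 or Src 3.

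Focal adhesion and integrin genes shifted the same way: of 22, 2 rose and 10 fell (median -0.34; -0.35 without control 3), although none rose without control 1, without control 2 or without Src 3, and 1 rose without Src 1. Fermt2, kindlin 2, which activates integrins, read 7.01, 6.96 and 6.45 in Src and 9.59, 9.55 and 9.32 in control (log2 difference -2.68 ± 0.19). Integrin-linked kinase, Ilk (-1.09 ± 0.10), the integrin subunit Itgb6 (-1.03 ± 0.11) and the epithelial kindlin Fermt1 (-0.98 ± 0.13) fell. Itgb8 read 7.80, 7.81 and 10.42 in control and 6.03, 6.02 and 6.09 in Src; control 3 was far above the others, and without it the difference was -1.76 in place of -2.64. Podosomes are the adhesion structures that active Src is known to induce, and of 16 of their genes 3 rose and 4 fell (median -0.17; 3 and 8, median -0.32, without control 3). The actin bundler Lcp1 read 5.26, 5.62 and 5.39 in Src and 8.27, 8.32 and 7.77 in control (log2 difference -2.70 ± 0.18), while the scaffold Sh3pxd2a, known as Tks5, rose by 0.63.

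Targets of YAP and SRF were lower in Src than in control. YAP, a coactivator that responds to spreading and tension, and SRF, a factor that responds to free actin, share many targets. Of 19 such genes, 1 rose and 15 fell (median -0.66; 16 fell, median -0.93, without control 3, and 9 fell without control 1 or without control 2). F3, tissue factor, read 7.13, 7.13 and 7.19 in Src and 10.44, 10.53 and 10.21 in control (log2 difference -3.25 ± 0.11, 9.48-fold lower). Ccn1 read 8.78, 8.84 and 8.87 in Src and 10.72, 10.66 and 10.19 in control (log2 difference -1.70 ± 0.16), and Ccn2, another matricellular protein, 8.44, 7.90 and 8.33 and 10.18, 10.06 and 9.53 (-1.70 ± 0.17). Lats2, a kinase that restrains YAP, read 6.39, 5.96 and 6.6 and 7.99, 8.02 and 7.58 (-1.55 ± 0.14), and Ankrd1, a muscle-type ankyrin repeat protein, differed by -1.58 ± 0.24. No Src array reached a control array for any of these 5 genes.

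Of 12 smooth muscle contractile genes, 6 fell and 0 rose (median -0.46; -0.59 without control 3), and their mean level was 7.07 to 7.13 in the Src arrays and 7.89 to 8.12 in the controls. Tagln read 5.84, 6.05 and 6.04 in Src and 8.74, 9.27 and 8.53 in control (log2 difference -2.87 ± 0.19), and Acta2, smooth muscle actin, 8.62, 8.70 and 8.48 and 10.12, 10.54 and 9.88 (-1.58 ± 0.26); the contractile genes Cnn1 (-1.62 ± 0.29) and Myl9 (-2.40 ± 0.31) fell. These genes also mark stromal cells that a primary culture could hold. Of 15 fibroblast markers, also stromal, 2 rose and 2 fell (median 0.03, and 1 rose without control 1, control 2 or Src 3). These shares were near those of all genes, and only 7 of the markers reached the median of all values in either group. Their mean level was between 6.14 and 6.2 in the Src arrays and between 6.17 and 6.31 in the controls. Dcn, decorin, read 5.18, 5.0 and 5.47 in Src and 6.78, 6.94 and 7.39 in control (log2 difference -1.82 ± 0.27), and Fbln2 rose by 1.72. Whether fewer contractile cells or less RNA per cell gave the lower values cannot be told apart in bulk RNA.

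TEAD factors, the DNA-binding partners of YAP, recognise GGAATG, searched here on both strands. It was in 12.6% of the RefSeq promoter entries (14.4% of genes) and in 8 of the 17 YAP and SRF list genes with an entry (47.1%). The list was drawn up from known targets. The promoters of Ankrd1 and Ccn1 are shown because both genes fell and hold a match within 200 bases of the start, read as CATTCC where it lies on the other strand.

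Ankrd1, chr19:36119845-36120044, - strand: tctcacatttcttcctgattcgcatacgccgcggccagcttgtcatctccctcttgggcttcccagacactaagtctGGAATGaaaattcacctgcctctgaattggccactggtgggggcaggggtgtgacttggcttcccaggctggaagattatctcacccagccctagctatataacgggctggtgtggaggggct
Ccn1, chr3:145649986-145650185, - strand: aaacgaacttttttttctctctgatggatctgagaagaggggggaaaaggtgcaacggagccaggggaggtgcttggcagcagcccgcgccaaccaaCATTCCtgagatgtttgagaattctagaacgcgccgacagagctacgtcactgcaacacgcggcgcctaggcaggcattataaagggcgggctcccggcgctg

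Matrix proteases and their inhibitors fell more often than they rose. Of 24 genes, 5 rose and 11 fell (median -0.39; 5 and 12 without control 3). Mmp13 rose as given above and Mmp10, stromelysin 2, rose by 1.30 ± 0.25. The inhibitors Timp3 and Timp1 both fell, Timp1 from 9.27, 9.08 and 8.77 in control to 7.26, 7.32 and 7.54 in Src (log2 difference -1.67 ± 0.14). Adamts5 (-2.31 ± 0.14) and Adamts1 (-1.90 ± 0.13), proteases that cut proteoglycans, and Mmp7, matrilysin (-0.92 ± 0.12), fell, so the proteases themselves moved in both directions.

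Mesenchymal genes did not rise as a group. Of 23, 4 rose and 6 fell (median -0.20; 3 fell without Src 1 or without Src 2). Fn1, fibronectin, read 8.38, 8.52 and 7.93 in Src and 11.85, 12.04 and 11.55 in control (log2 difference -3.54 ± 0.29), and Lox, which cross-links collagen, 3.78, 4.48 and 4.44 and 6.38, 6.17 and 5.97 (-1.94 ± 0.26). Twist1, a transcription factor that drives mesenchymal change in development, rose from 5.80, 5.88 and 5.79 to 7.35, 7.17 and 7.44 (1.5 ± 0.13), and S100a4 from 9.70, 9.55 and 9.14 to 11.29, 11.16 and 11.27 (1.78 ± 0.15). Vim, vimentin, stood at 9.38 ± 0.04 in Src and 9.12 ± 0.11 in control (adjusted p = 0.0509), and Cdh2, N-cadherin, at 5.93 ± 0.08 and 6.13 ± 0.10 (adjusted p = 0.163). Zeb1, a repressor of E-cadherin, fell (-0.65 ± 0.13).

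In the TGF-beta list, 5 of 21 rose and 7 fell (median -0.24). Tgfbi, a secreted matrix protein induced by TGF-beta, read 9.51, 9.5 and 9.80 in Src and 6.28, 6.46 and 6.35 in control (log2 difference 3.24 ± 0.10, 9.43-fold). Its 3 control arrays lay below the median of all values and all Src arrays far above. Of the ligands, Tgfb1 rose (0.82 ± 0.11) and Tgfb2 fell (-1.06 ± 0.15), and the signal transducer Smad3 fell (-1.0 ± 0.15).

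Of Src's own family, 1 of 6 measured kinases fell and 0 rose. Fyn, a close relative of Src, read 5.82, 5.59 and 5.82 in Src arrays and 7.0, 7.04 and 6.93 in control (log2 difference -1.25 ± 0.13); Yes1 (-0.08), Fgr (0.17), Blk (-0.07) and Frk (0.00) did not pass the test. Of 28 regulators and substrates, 7 rose and 6 fell (median -0.01; 4 rose without Src 3, and 9 fell without control 3). Tns4, a tensin of focal adhesions, read 10.02, 9.88 and 10.05 in Src and 8.62, 8.53 and 7.75 in control (log2 difference 1.69 ± 0.17). Cav1, caveolin 1, a membrane coat protein first found as a v-src substrate, read 10.21, 10.26 and 10.35 and 9.46, 9.40 and 8.99 (0.99 ± 0.21), and Cblb, a ubiquitin ligase that removes active kinases, 9.15, 9.24 and 9.26 and 8.38, 8.67 and 8.27 (0.78 ± 0.11). Cttn, cortactin, and Ptk2b, a relative of focal adhesion kinase, fell (-0.49 ± 0.12 and -0.61 ± 0.13). Csk, which phosphorylates the tail that v-src lacks, differed by 0.11 ± 0.12 (adjusted p = 0.535). Cav2, the partner of Cav1 in caveolae, rose from 8.31, 8.34 and 8.26 in control to 9.76, 9.68 and 9.54 in Src (1.36 ± 0.11).

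ERK output genes rose far more often than they fell. Of 25, 11 rose and 2 fell (median 0.26, and 10 and 2 without control 3). Against the other oncogene lines, by adjusted p alone, 5 were higher in Src and 7 lower (median -0.08). Fosl1, the AP-1 subunit Fra-1, read 8.14, 8.33 and 8.46 in Src and 6.85, 6.59 and 6.49 in control (log2 difference 1.66 ± 0.12), and Dusp6, a phosphatase that ERK induces against itself, 8.62, 8.39 and 8.79 and 7.65, 7.79 and 7.67 (0.90 ± 0.12). The membrane protein gene Emp1 (1.09 ± 0.11), the ETS factor Etv5 (1.14 ± 0.22) and the ERK inhibitors Spred2 (0.80 ± 0.10) and Spred1 (0.67 ± 0.10) rose as well. Dusp1, a phosphatase induced by stress and growth factors, read 6.92, 6.67 and 6.87 in Src and 8.79, 8.59 and 8.55 in control and fell by 1.82. In the AP-1 and immediate early list, 6 of 19 rose and 2 fell: Jun read 7.23, 7.19 and 7.26 in Src and 8.72, 8.92 and 8.48 in control (log2 difference -1.48 ± 0.11), so Fosl1 and Jun, both AP-1 subunits, moved in opposite directions. Of 14 ERBB receptors and ligands, 3 rose and 3 fell (median -0.05; 3 and 4 without control 3). Among them, the receptors Egfr (8.17, 8.14 and 8.2 in Src, 9.72, 9.82 and 9.24 in control, -1.42 ± 0.16) and Erbb3 (-0.90 ± 0.17) fell and the ligands Nrg1 (0.80 ± 0.19) and Tgfa (0.41 ± 0.10) rose.

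The STAT3 and interleukin 6 family list held genes of both directions, with a share that fell near that of all genes (14.2% rose and 12.2% fell). Of 23, 5 rose and 3 fell (median -0.10; 6 fell without Ras 2, and 3 rose without control 1, Src 1 or Src 3). Socs3, a feedback inhibitor that STAT3 induces, read 7.31, 7.30 and 7.16 in Src and 6.74, 6.86 and 6.65 in control (log2 difference 0.50 ± 0.08), a rise of small size but without overlap of the arrays. Lcn2, an iron-binding acute phase protein, read 7.37, 7.23 and 7.39 and 9.70, 9.51 and 9.11 and fell by 2.11, and Socs2 fell by 1.80.

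Of 26 interleukin 1 family and chemokine genes, 7 rose and 3 fell (median 0.15; 6 and 3 without control 3). Beside Il1a and Il1f9, the monocyte chemokine Ccl2 read 10.47, 10.36 and 10.12 in Src and 7.84, 7.77 and 7.51 in control (log2 difference 2.61 ± 0.15), and the neutrophil chemokine Cxcl1 9.74, 9.78 and 9.76 and 8.56, 8.37 and 8.24 (1.37 ± 0.16). Cxcl5, of the same neutrophil-attracting family, rose (2.64 ± 0.41), and so did the alarm cytokine Il33 (1.44 ± 0.22). Ccl5, which attracts T cells, read 7.18, 7.30 and 6.98 in Src and 9.10, 9.28 and 9.05 in control (log2 difference -1.99 ± 0.10), and Csf1, a macrophage growth factor, fell by 1.33. Of 22 interferon response genes 1 rose and 3 fell (median -0.47), and 12 fell without Ras 3 or when only the Src and control arrays were fitted. Ifit2 fell (-1.1 ± 0.11) and so did Ddx58, the RNA sensor RIG-I (-1.48 ± 0.33), while Mx1 rose but stood at 5.05 ± 0.04 in Src and 4.31 ± 0.08 in control, both below the median of all values. Of 14 leukocyte markers 1 rose and 0 fell (1 fell without control 1 or Src 2 and 2 without control 2), with a mean level between 5.58 and 5.67 in the Src arrays and between 5.60 and 5.85 in the controls.

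Growth genes rose almost throughout. All 25 DNA replication genes rose (median 1.05; 23 rose, median 0.91, without control 3), as did 18 of 22 mitosis genes (median 0.78; 18, median 0.60) and 21 of 24 ribosome biogenesis genes (median 0.68; 19, median 0.61), and none of these lists held a gene that fell. Control 3 was the lowest control in each gene described next. Prim1, a subunit of DNA primase, read 10.11, 10.18 and 10.07 in Src and 8.52, 8.60 and 8.10 in control (log2 difference 1.71 ± 0.11), and Mcm4, of the replicative helicase, 9.93, 9.94 and 9.92 and 8.52, 8.48 and 7.81 (1.66 ± 0.15). Kif11, a spindle motor, read 10.04, 10.00 and 10.06 and 8.68, 8.52 and 7.78 (1.71 ± 0.18), and Aurkb, a mitotic kinase, 8.76, 8.57 and 8.91 and 7.84, 7.54 and 7.26 (1.20 ± 0.14). The lowest Src array was above the highest control in all 4. Dkc1, a nucleolar RNA-modifying enzyme (1.15 ± 0.14), and Ccnd1, cyclin D1 (0.59 ± 0.11), rose, and Rb1, the retinoblastoma protein, fell (-0.91 ± 0.17). Against the other oncogene lines, by contrast, 0 mitosis genes were higher in Src and 14 lower (median -0.44).

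**Figure D3:**
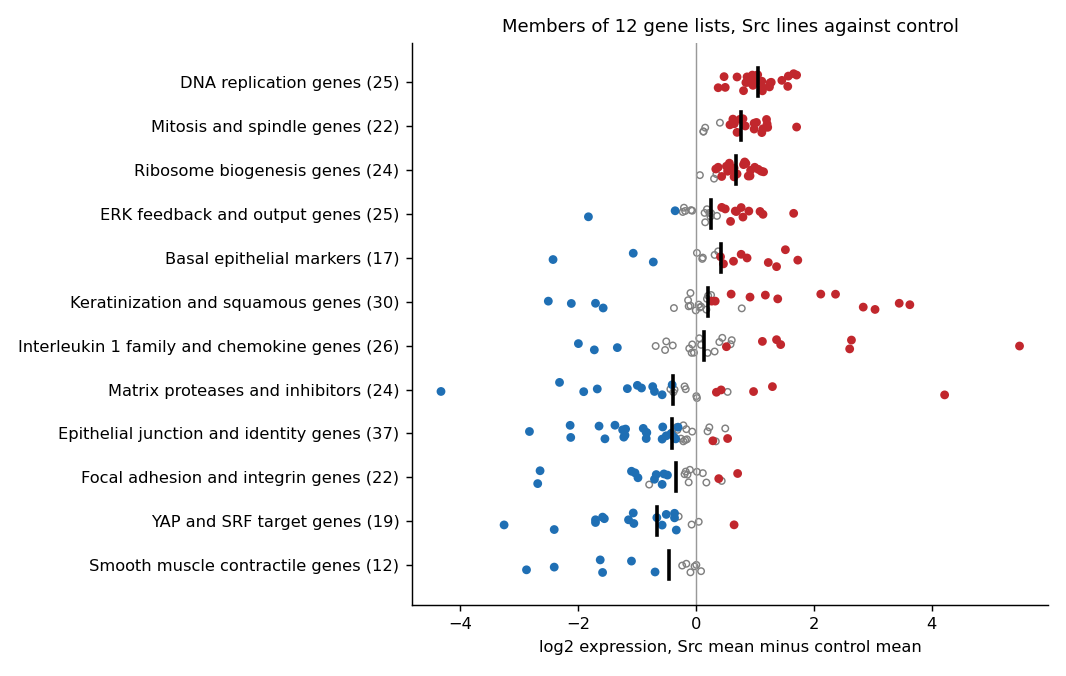
Log2 difference between the Src mean and the control mean (x axis) for every measured member of 12 gene lists, 1 point per gene, with the number of members in brackets. Red and blue points had an adjusted p under 0.05 (higher and lower in Src), open grey points did not, and black bars are list medians, from 1.05 for DNA replication to -0.66 for YAP and SRF targets; vertical scatter within a row is only for legibility.

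Oncofetal genes, active in embryonic tissue and often again in tumours, rose in 4 of 7 measured and fell in 0. Hmga2, a chromatin protein, read 9.35, 9.60 and 9.62 in Src and 7.65, 7.49 and 7.40 in control (log2 difference 2.01 ± 0.10), Lin28b, which blocks let-7 processing, 6.31, 6.57 and 6.37 and 5.13, 5.37 and 5.25 (1.17 ± 0.14), and the RNA-binding protein gene Igf2bp1 rose by 1.1. In the glycolysis and hypoxia list, 9 of 23 rose and 3 fell (median 0.24; 6 and 5 without control 3, 5 rose without Src 3, and 1 fell without any one Src array). Egln3, an oxygen-sensing prolyl hydroxylase, read 9.35, 9.14 and 9.45 in Src and 6.25, 6.0 and 6.41 in control (log2 difference 3.10 ± 0.18, 8.56-fold), and the glycolytic enzyme Pfkp 9.21, 8.95 and 9.09 and 7.47, 7.37 and 7.67 (1.58 ± 0.19). Glutathione and NRF2 target genes rose in 5 of 20 and fell in 3 (median 0.02): the aldehyde dehydrogenase Aldh3a1 read 7.56, 7.33 and 7.82 in Src and 6.07, 5.84 and 5.71 in control (1.69 ± 0.12), and the glutathione peroxidase Gpx2 9.45, 9.64 and 9.58 and 8.35, 8.22 and 7.70 (1.46 ± 0.18). Aldh1a3, which makes retinoic acid, fell by 2.04.

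Other metabolic and signalling lists moved little or in both directions. Of 20 cholesterol and fatty acid synthesis genes 3 rose and 4 fell (1 rose without control 3 or Src 3, and 1 or 2 fell without control 1, control 2, Src 1 or Src 2), with the elongase Elovl6 among those that rose (1.07 ± 0.20) and the desaturase Scd1 among those that fell (-1.28 ± 0.38). Of 18 oxidative phosphorylation genes 2 rose and 2 fell, shares below those of all genes, and fewer did without single arrays (0 or 1 rose without control 1, control 2 or any one Src array, and 1 fell without control 1, control 3 or any one Src array). Of 24 Wnt and Notch pathway genes 3 rose and 2 fell (4 without control 3), among them the Notch ligand Jag2 (0.76 ± 0.11) and the receptor Notch2 (-0.58 ± 0.10). Of 16 p53 targets 4 rose and 5 fell (3 fell without control 1 or control 2): the death receptor gene Fas rose from 6.40, 6.23 and 6.33 in control to 7.74, 7.78 and 7.34 in Src (1.31 ± 0.16), and Mdm2, the ubiquitin ligase of p53, fell from 10.28, 10.13 and 9.70 to 9.33, 9.25 and 9.28 (-0.75 ± 0.19). Of the remaining marker lists, endothelial markers had a mean level of 5.62, 5.67 and 6.64 in control arrays 1, 2 and 3 and 5.68 to 5.76 in the Src arrays, with 5 of 12 high in control 3, and 11 neuroendocrine markers had a mean level of 5.61 to 5.62 in control and 5.71 to 5.74 in Src.

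The Src arrays were also compared with the Myc, NeuT and Ras arrays, lines that were kept in the same medium. Against the mean of these 3 groups, 307 genes were called higher in Src (1.54%) and 220 lower (1.1%). One group at a time, 346 genes were called higher (1.74%) and 273 lower (1.37%) against Myc, 315 (1.58%) and 394 (1.98%) against NeuT, and 505 (2.53%) and 589 (2.95%) against Ras. Genes called in the same direction against each of the 3 groups, referred to as set apart, numbered 143 higher (0.717%) and 45 lower (0.226%). In 142 and 45 of them the Src arrays did not overlap the 9 other line arrays, which was so for 10.3% of all genes. This too follows largely from the calls. Of the 143, 57 were also called higher than control, 77 were not called against control and 9 were called lower than control; both comparisons use the same Src arrays. Of the 45 lower, 33 were also called lower than control, 11 were not called and 1 was called higher.

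Many basal and squamous genes were set apart on the high side. Of 17 basal markers, 15 were higher in Src than in the mean of the other lines by adjusted p alone (8.96% of all genes), 1 was lower (11.3% of all genes), the median was 1.79, against 0.03 over all genes, and 8 were set apart. Krt5 was at 12.19 ± 0.06 in Src, 9.23 ± 0.21 in Myc, 5.70 ± 0.07 in NeuT and 5.59 ± 0.11 in Ras lines (mean ± SD, n = 3 arrays each), a difference of 5.35 ± 0.12 from the mean of the others. Levels in NeuT and Ras were below the median of all values, Myc lay in between, and control, at 10.96 ± 0.34, was closer to Src. Dsg3, a desmosome cadherin of stratified epithelium, was at 9.56 ± 0.11 in Src, 6.97 ± 0.15 in Myc, 4.70 ± 0.21 in NeuT and 4.65 ± 0.21 in Ras (difference 4.11 ± 0.15) and differed from control by -0.21 ± 0.18 (adjusted p = 0.424; -0.46 without control 3). Krt6a, a keratin of activated squamous cells, was at 11.01 ± 0.02 in Src and at 8.70 ± 0.34, 5.94 ± 0.34 and 5.85 ± 0.19 in Myc, NeuT and Ras (difference 4.19 ± 0.17), with control at 10.24 ± 0.40.

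For those 3 genes the Src lines were near or above control while the other lines were lower. Other genes were high against every other group, control included. Serpinb10 was 4.76 ± 0.15 above the other lines, Il1f9 4.50 ± 0.33, Tmem45a 4.45 ± 0.28, Ptprz1 3.98 ± 0.19, and Vsnl1, a neuronal calcium sensor, 4.42 ± 0.18. Vsnl1 read 10.26, 10.04 and 10.33 in Src and 7.42, 7.15 and 6.51 in control, and its mean was 5.66, 6.09 and 5.60 in Myc, NeuT and Ras. Sprr2d (3.65 ± 0.22), S100a9 (3.77 ± 0.23) and Tgfbi (3.18 ± 0.08) were also high against every other group. Il1a was not, since it stood at 11.21 in Myc and 10.84 in NeuT lines, near the Src mean of 11.37, and at 4.69 in Ras. Mmp13 was at 10.45 in Ras and below the median of all values in Myc and NeuT, and Prkg2 and Prl2c5 differed from the other lines by 0.19 ± 0.12 and 0.59 ± 0.26 (adjusted p = 0.301 and 0.127).

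Of 30 squamous genes, 14 were higher in Src than in the other lines, 2 lower (1 lower without any one Src array) and 6 set apart, all higher. Of 37 junction genes, which were mostly lower in Src than in control, 23 were higher than in the other lines and 4 lower (2 lower without Src 1), with a median of 0.57. The mean level of this list was 8.03 in Src, 8.01 in Myc and 7.98 in NeuT but 6.25 in Ras. Only 2 of its genes were set apart higher and 1 lower. Cdh1 was at 9.58 ± 0.11 in Myc, 10.45 ± 0.10 in NeuT and 5.91 ± 0.22 in Ras lines, and Src, at 9.94 ± 0.10, lay between Myc and NeuT. Pkp2 was among the 4 lower genes and was set apart on the low side (-1.39 ± 0.09). Of 20 glutathione and NRF2 targets, 9 were higher than in the other lines and 5 were set apart, among them Gpx2 (3.63 ± 0.15), with 5.86, 6.10 and 5.81 in Myc, NeuT and Ras, and Aldh3a1 (1.92 ± 0.10). YAP and SRF targets, low in Src against control, had a median of 0.06 against the other lines, with 2 higher (5 without control 3) and 4 lower, and Ccn1 differing by -1.36 ± 0.13.

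**Figure D4:**
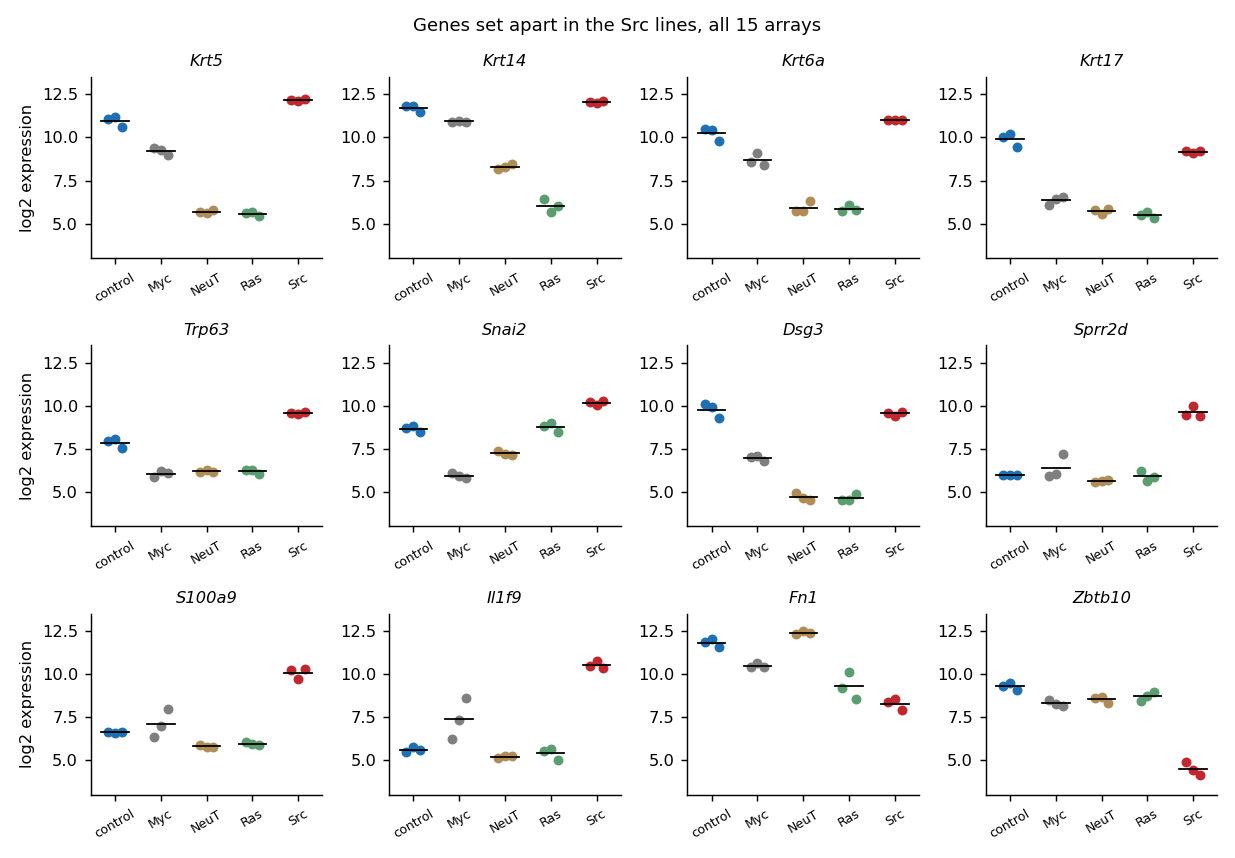
Log2 expression (y axis) in all 15 arrays of 12 genes set apart in the Src lines, with 1 point per array, a line at each group's mean and the groups in the order control, Myc, NeuT, Ras, Src. For Krt5, Krt14, Krt6a, Krt17 and Dsg3 the control points lie near the Src points, for Sprr2d, S100a9 and Il1f9 the Src points lie above every other group, and for Fn1 and Zbtb10 below.

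On the low side, Fam111a, a nuclear protease gene, was at 4.96 ± 0.44 in Src, 8.65 ± 0.25 in control, 9.98 ± 0.20 in Myc, 10.06 ± 0.22 in NeuT and 11.40 ± 0.07 in Ras (difference from the other lines -5.51 ± 0.16). As Src minus the other lines, Slc38a1 differed by -4.83 ± 0.14 (SE), Zbtb10 by -4.0 ± 0.15, Ddah1 by -3.56 ± 0.15 and Alkbh3, a demethylase of alkylated DNA and RNA, by -2.68 ± 0.09. Alkbh3 read 6.76, 6.48 and 6.33 in Src and 9.06, 9.14 and 9.28 in control, and its mean was 9.0, 9.32 and 9.30 in Myc, NeuT and Ras, so every group but Src stood near one level. Trps1, a GATA-type repressor, differed by -2.61 ± 0.20, Gspt2, a translation termination factor, by -2.51 ± 0.13 and Tmem47 by -2.50 ± 0.16. Fn1 was set apart as well (-2.44 ± 0.24), with 9.29 ± 0.80 in Ras, the group nearest to Src. Src array 2 was the lowest of the Src arrays for Fam111a, Trps1 and Tmem47 and Src array 3 for Zbtb10, Ddah1, Alkbh3 and Gspt2. Of the 12 lowest genes against control, only Zbtb10, Slc38a1 and Ddah1 were set apart. In Myc, NeuT and Ras, Efemp1 stood at 5.03, 4.91 and 5.30, Timp3 at 5.75, 5.66 and 6.36 and Ceacam1 at 4.90, 4.82 and 5.55. Those levels were near or below the Src means of 5.13, 6.15 and 5.70. Wnk3 was low in all lines too. Bex1 stood at 4.11 in Myc, 10.67 in NeuT and 3.80 in Ras. Eif2s3y stood at 6.96, 3.37 and 3.47 in Myc, NeuT and Ras.

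Called genes were not spread evenly over the chromosomes, a grouping made after the data were examined. Chromosomes were taken from RefSeq (GRCm38.p6) for 19905 of the genes, on chromosomes 1 to 19 and X. On chromosome 14, 49 of 701 genes were called lower in Src than control (6.99%) and 1 higher (0.143%), where 2.91% and 1.52% of these 19905 genes were. The count called higher was 2 without control 1 and 2 without control 3. Chromosome 3 had 61 of 945 lower (6.46%) and 14 higher (1.48%). On chromosomes 16 and 19, 23 of 649 and 24 of 678 genes were called higher (3.54% each). Lower calls there numbered 23 (3.54%) and 15 (2.21%), so the calls on chromosome 16 were even in number. Without control 3, 24 genes of chromosome 16 and 18 of chromosome 19 were called higher.

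Shifts also appeared over all well-measured genes of these chromosomes. Over the 357 genes of chromosome 14 whose mean over all arrays was at or above the median of all values, the median difference was -0.34, and 266 of them (74.5%) were lower in Src, against a median of 0.03 and 46.9% over all chromosomes. Each Src array showed it: minus the mean of controls 1 and 2, the chromosome 14 median was -0.30, -0.37 and -0.32 in Src arrays 1, 2 and 3. Against the other oncogene lines it was -0.26, with -0.23 against Myc, -0.06 against NeuT and -0.38 against Ras. On chromosome 3 the median was -0.21 against control and -0.19 against the other lines, and 68.4% of 484 genes were lower. Its medians were -0.22 against Myc, -0.20 against NeuT and -0.12 against Ras. Chromosome 19 had 0.26 against control, with 21% of 357 genes lower, and 0.13 against the other lines, with -0.01 against Myc, 0.08 against NeuT and 0.32 against Ras. Chromosome 16 had 0.20 against control, with 31.5% of 321 lower, and 0.18 against the other lines, with 0.10 against Myc, 0.24 against NeuT and 0.18 against Ras. Other chromosomes had smaller median shifts against control, among them 10 (0.15, with 32.2% of genes lower), 18 (-0.12, 63.3%) and 4 (-0.11, 60.4%). Against the other lines, chromosome 18 had -0.18, with -0.09 against Myc, 0.01 against NeuT and -0.46 against Ras. Chromosomes 10 and 4 had -0.03 and -0.08 against the other lines. All of these are differences of RNA, and DNA copy number was not measured.

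**Figure D5:**
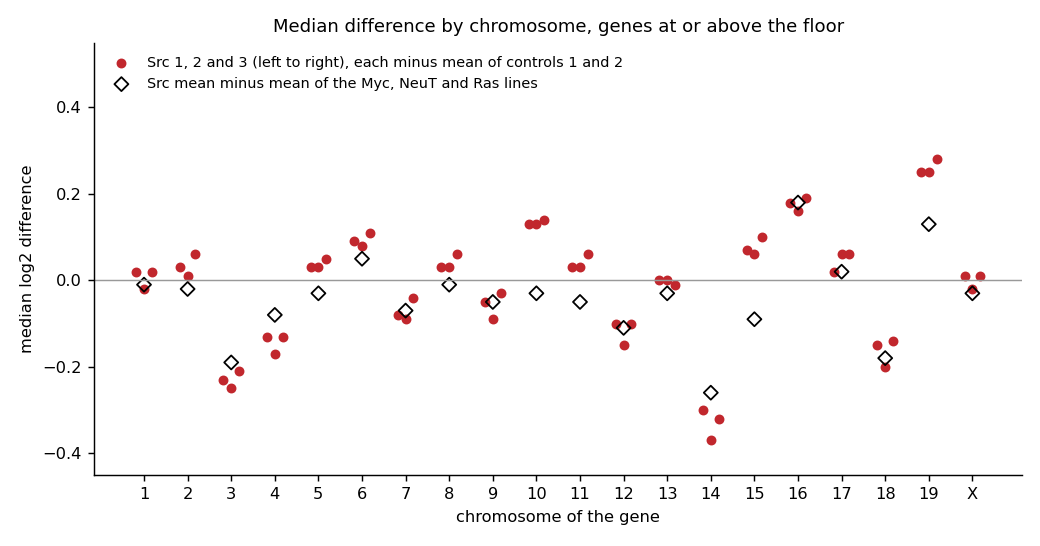
Median log2 difference (y axis) over the genes of each chromosome (x axis) whose mean over all arrays was at or above 6.47. Red points are Src arrays 1, 2 and 3, each minus the mean of control arrays 1 and 2, and open diamonds are the Src mean minus the mean of the Myc, NeuT and Ras lines; the 3 red points lie close together on every chromosome, lowest on 14 (-0.37 to -0.30) and highest on 19 (0.25 to 0.28).

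Several genes described above lie on these chromosomes, which were read off after their values were known. Moving with the shift were Fermt2 on 14 and Zbtb10, Ddah1 and F3 on 3. So were Tmem45a and Trp63 on 16 and Fosl1, Kif11 and Il33 on 19. Others moved against it: Sprr2d and S100a9 on 3 were higher in Src, and Fam111a and Ankrd1 on 19 were lower. Genes called on these chromosomes differ by at least 2-fold, so they exceed the chromosome's median by that choice. Lmo7, a junction-associated actin regulator on 14, fell by 2.75. Gch1, the first enzyme of tetrahydrobiopterin synthesis, also on 14, fell by 2.60. On chromosome 16, the collagen gene Col8a1 rose by 2.88 and the neuronal growth protein gene Gap43 by 2.40. How far the shift of the chromosome takes part in these differences was not tested.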

How the data were processed

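RNA was amplified with WT-Ovation Pico and hybridised to 1-colour Affymetrix arrays, per the labels' protocols. The authors deposited log2 values per probe set; the submitters' processing notes list RMA and Affymetrix Expression Console 1.1 with no order. The array medians lay between 6.19 and 6.32. Probe sets were named through the platform annotation: 21789 had 1 gene, 1621 several and 12146 none. For 999 genes with several probe sets, the one with the highest mean was used. The annotation can be old; Entrez numbers of 21698 probe sets matched RefSeq and changed 0 symbols.

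Group means of all 15 arrays, in 5 groups, were fitted with limma 3.58.1 (lmFit, eBayes) in R 4.3.3, and p-values were adjusted by Benjamini-Hochberg over 19938 genes, two-sided. Called means adjusted p under 0.05 and at least 2-fold. Counts for gene lists use the adjusted p alone. Nothing in the labels says that replicates came from separate animals, so p-values measure the spread between these arrays, which may be in part technical. The comparisons and lists were chosen with earlier results of these data known.

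The 12 highest and 12 lowest genes had the largest differences among genes called with and without control 3, not high in it, with no overlap of Src and control arrays and the higher of the group means no lower than 6.47, the median over genes and arrays. The same floor was set for the 8 highest and 8 lowest genes set apart, with no overlap of the Src arrays and the 9 other line arrays. Predicted genes were passed over. Added were Src, its family and regulators, kidney markers and up to 6 members of each list by smallest p. Krt14, Krt17, Krt18, Sprr1a, S100a8, Ivl, Epcam, Grhl2, Vim, Cdh2, Zeb1, Ankrd1, Mmp10, Etv5, Cxcl5, Il33 and the genes named by chromosome were picked after their values were seen.

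The fit was tested on simulated data with 200 changed genes. Between Src and control it recovered 89.5% of genes changed 2-fold by adjusted p alone and 47.0% with the 2-fold minimum, and 97.5% of those changed 4-fold either way. Alternatives were median centring, quantile normalization, a filter on dim genes, the mean of probe sets, trended and robust eBayes, array weights, a fit of only the groups compared, a block for the replicate number, no fold minimum and each array left out; leaving out single Myc, NeuT or Ras arrays was added after the data were examined. Same-numbered Src and control arrays deviated together with correlations of -0.02 to 0.03, so the numbers were not taken as pairs.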

Additional observations from a re-analysis of the deposited data

Results flagged for a closer look

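Against the mean of the Myc, NeuT and Ras lines, with each of these groups also differing from Src in the same direction by limma's test, the named genes with the largest differences were as follows, all as log2 differences of Src minus the others. Basal and squamous epithelial genes were higher by 5.35 (Krt5), 4.19 (Krt6a), 4.11 (Dsg3) and 3.65 (Sprr2d). The cytokine gene Il1f9 was higher by 4.50 and the calprotectin gene S100a9 by 3.77. Serpinb10 was higher by 4.76, Tmem45a by 4.45, Vsnl1 by 4.42 and Ptprz1 by 3.98. On the low side the differences were -5.51 for Fam111a, -4.83 for Slc38a1, -4.0 for Zbtb10, -3.56 for Ddah1, -2.68 for Alkbh3, -2.61 for Trps1, -2.51 for Gspt2 and -2.50 for Tmem47.

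Probe sets that name no single gene were not used for the gene results. Among 1621 probe sets with several genes, 34 were called higher in Src than in control and 23 lower (3.52% in all), and among 12146 with no gene, 84 were called higher and 785 lower (7.15%), with p-values adjusted over all 35556 probe sets. By the same count, 4.35% of the single-gene probe sets were called.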

How the results depend on the processing

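The counts of genes called in whole comparisons moved most with the fold minimum. With no fold minimum, the counts by adjusted p alone were 5263 for Src against control (2823 higher and 2440 lower), 4048 against the other 3 oncogenes, 978 set apart, 3777 against Myc, 4019 against NeuT and 5214 against Ras. Under all the other alternatives these counts stayed within 1.5 times the main ones. Leaving out 1 array at a time gave 856 to 993 genes for Src against control (276 to 349 higher and 542 to 644 lower), 514 to 534 against the other 3 oncogenes, 181 to 193 set apart, 584 to 633 against Myc, 692 to 724 against NeuT and 1071 to 1135 against Ras. Without control 3, 870 genes were called, of which 746 were shared with the 886 called with it. With the replicate block, fitted although the arrays share only a number, 892 genes were called for Src against control, 527 against the other 3 oncogenes and 188 set apart, and 619, 707 and 1095 against Myc, NeuT and Ras. Single genes were recomputed under 24 alternatives, giving 6909 differences. Of these, 6722 kept their direction and their side of the threshold, 124 no longer passed, 63 newly passed and 0 reversed. The 24 highest and lowest genes and the 16 genes set apart kept theirs in all 576 and 384. Those genes were chosen for large differences without overlap of arrays, so this outcome was close to fixed by the choice. Over these alternatives the genes called on chromosome 14 numbered 45 to 52 lower, and on chromosome 3, 53 to 66 lower. Those called higher numbered 21 to 26 on chromosome 16 and 17 to 30 on chromosome 19. Signals below 6.47 limit the size of a difference, and 3 arrays a group limit the precision.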
